A study of Danio rerio with 8 samples.

Results

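The Xin repeat proteins and the filamins were followed as 1 group of 7 genes, *xirp1*, *xirp2a*, *xirp2b*, *flna*, *flnb*, *flnca* and *flncb*, among the 31388 genes of the deposited expression table. *xirp1*, *xirp2a* and *flna* were taken from the measured contrast between the cell populations described here, and the others were taken by symbol as their relatives. The population differences of these genes are therefore given as a description. Their intervals, adjusted p and calls are printed for size and spread and are not read as a test. The 7 genes matched 9 rows of the table, because the symbols *xirp1* and *flnb* each have a pair of rows. The study's own gene list names 1 of the *xirp1* rows, ENSDARG00000092427, si:dkey-24c2.7. *flnca* is the row ENSDARG00000018566, which carries the human-style symbol FLNC. *flncb* (ENSDARG00000018820) and *xirp2b* (ENSDARG00000091090) were assigned by elimination, as the other row with the symbol FLNC and the other row with the symbol XIRP2.

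RNA was sequenced from cardiomyocytes sorted from ventricles of adult zebrafish aged 6 to 9 months that carried both *tbx5a:GFP* and *myl7:nuc-dsRed*. The tbx5a+ population was GFP+/nuc-dsRed+ and the tbx5a- population was GFP-/nuc-dsRed+, with 4 libraries each. Both populations of a pair carry the same pair number in the sample labels (2, 8, 9 and 10), each library came from a pool of 5 hearts, and every fish carried both transgenes. The GFP transgene reports the activity of *tbx5a* regulatory elements, the red nuclear marker is driven by the cardiomyocyte promoter of *myl7*, and the atrioventricular canal was dissected away before sorting. Each library was made from 0.6 ng of total RNA with repeated amplification and read as 60-base single reads.

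Xin repeat proteins bind and bundle actin filaments through the repeat that names them. In the mouse and chick heart they sit at the intercalated disc, where the myofibrils of neighbouring cardiomyocytes are anchored to the membrane. Filamins are dimers that crosslink actin filaments and tie them to membrane receptors. In mammals filamin A and filamin B are found in most cell types, whereas filamin C is the muscle form, located at Z-discs and intercalated discs, and it binds Xin.

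The libraries held an estimated 8076540 to 9491728 reads in tbx5a+ cells and 7149173 to 9203787 reads in tbx5a- cells. Values are given in the authors' normalised units, in which 1 read was worth 0.859 to 1.19 units depending on the library. *tbx5a*, which encodes the T-box transcription factor behind the sort, had 4919, 3494, 3197 and 4919 units in tbx5a+ cells of pairs 2, 8, 9 and 10, against 442, 346, 90.5 and 119 units in tbx5a- cells. MYL7, the myosin light chain whose promoter drives the red marker, averaged 89973 ± 8800 units in tbx5a+ cells and 91813 ± 10668 units in tbx5a- cells (SD, n = 4 each). Listed cardiomyocyte markers summed to 797000 to 865000 units in tbx5a+ libraries and 736000 to 885000 units in tbx5a- libraries. 1 of the 15 tested was called: *vmhc*, the ventricular myosin heavy chain, had 4924, 3205, 3902 and 3364 units in tbx5a+ cells of pairs 2, 8, 9 and 10, against 27884, 9488, 32219 and 13760.2 units in tbx5a- cells (log2 fold change -2.29, SE 0.28, adjusted p = 3.22e-05 in limma, 0.221 with robust moderation). The tbx5a+ libraries had 13706 to 14983 genes above 0. The tbx5a- libraries of pairs 2 and 9 stood apart, with 12225 and 11329 genes above 0, against 13301 and 13793 in the other tbx5a- libraries. They also had the fewest estimated reads of all 8 libraries, at 7149173 and 7262615. The log2 fold changes of *xirp1*, *xirp2a*, *flna*, *flnca*, *flncb* and the called smooth muscle markers are given with and without them. Without them that of *vmhc* was -1.59 (limma adjusted p = 0.0271). Other results include those libraries unless stated. In pools of sorted cells, fewer cells of a type and less RNA per cell cannot be told apart.

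Of 13895 genes tested with limma on log2(value + 1), 27 were called, that is, had an adjusted p up to 0.05 together with a difference of 1 or more on the log2 scale in either direction, which is 0.194% of the tested genes. Of these, 26 were higher in tbx5a- cells, 0.187% of the tested genes. With the pair as a block, 58 genes passed, or 0.417%. 6 of the 7 genes had a row that was tested, and 7 of the 9 rows were tested. *xirp2a* and *flna* were past both thresholds, with and without the block, and both were lower in tbx5a+ cells. Since that contrast chose them, nothing is read from this count.

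**Figure D1:**
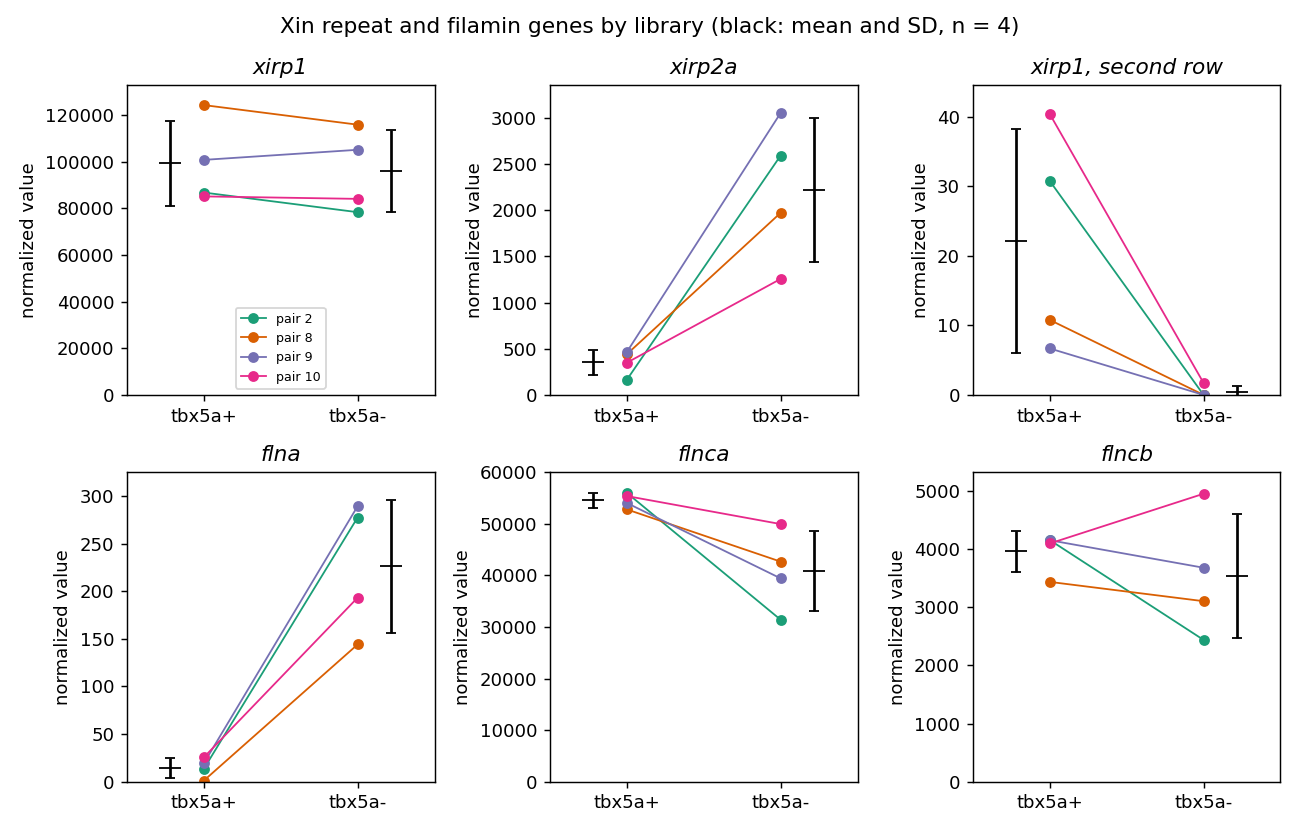
Normalised value (linear axis from 0) of 6 rows in the 8 libraries, tbx5a+ left of tbx5a-, with 1 coloured line for each pair and the mean and SD (n = 4) in black; the panel marked second row is the further *xirp1* row, ENSDARG00000092427. The populations are apart for *xirp2a* and *flna*, intermingled for *xirp1* and *flncb*, and apart by a small step for *flnca*.

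*xirp1* encodes Xin, which in human muscle binds filamin C and the actin regulators of the Ena/VASP family. It had 86824, 124344, 100826 and 85164 units in tbx5a+ cells of pairs 2, 8, 9 and 10, against 78391, 115933, 105155 and 84100 units in tbx5a- cells. These values made up 0.954% to 1.36% of all normalised signal in tbx5a+ libraries and 1.0% to 1.41% in tbx5a- libraries. The populations overlapped fully. Pair 8 was highest and pair 9 next in both populations, while the values of pairs 2 and 10 were intermingled. *xirp1* averaged 99290 ± 18120 units in tbx5a+ cells and 95895 ± 17633 units in tbx5a- cells (SD, n = 4 each). The log2 fold change was 0.05 (SE 0.23), with a 95% interval of -0.41 to 0.52. Within pairs the differences were 0.15, 0.10, -0.06 and 0.02 on the log2 scale, with an SD of 0.09. The populations of a pair thus lay closer together than pairs 8 and 9 lay to pairs 2 and 10. The mean difference was -0.068 with limma-voom, so its sign depended on the fit.

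*xirp2a* encodes the other Xin repeat protein of the heart, whose mouse counterpart is needed for the maturation of intercalated discs after birth and is a target of the transcription factor MEF2A. It had 162, 439, 462 and 348 units in tbx5a+ cells of pairs 2, 8, 9 and 10, against 2589, 1969.8, 3050.2 and 1255 units in tbx5a- cells. Every tbx5a+ library lay below every tbx5a- library. The means were 353 ± 136 units in tbx5a+ cells and 2216 ± 779 units in tbx5a- cells (SD, n = 4 each), a ratio of 0.159. The log2 fold change was -2.68 (SE 0.31), with a 95% interval of -3.32 to -2.05. The size varied between pairs: the within-pair differences were -3.99, -2.16, -2.72 and -1.85 on the log2 scale. The estimated 1457 reads in tbx5a+ libraries and 8323 reads in tbx5a- libraries leave little counting error in this range. Without the tbx5a- libraries of pairs 2 and 9, the log2 fold change was -2.26. It was still past the fold threshold but not the p threshold (limma adjusted p = 0.0539).

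The ratio of the Xin genes within a library needs no scaling between libraries. On the log2 scale *xirp2a* over *xirp1* was -9.07, -8.15, -7.77 and -7.94 in tbx5a+ cells of pairs 2, 8, 9 and 10, against -4.92, -5.88, -5.11 and -6.07 in tbx5a- cells. The mean within-pair difference was -2.74 ± 0.99 (SD, n = 4 pairs). The ratios themselves depend on transcript length, which cancels in their difference.

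*xirp2b*, the duplicate of *xirp2a*, was listed at 0 in all 8 libraries, and it was not tested. A count of 0 allows up to 3 reads, or 2.58 to 3.56 units per library. This floor, like the intervals on read counts below, covers counting error only.

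A further row with the symbol *xirp1* (ENSDARG00000092427) had 30.8, 10.8, 6.69 and 40.5 units in tbx5a+ cells of pairs 2, 8, 9 and 10, against 0, 0, 0 and 1.72 units in tbx5a- cells. The populations did not overlap, but the counts were low, at 91 reads over the tbx5a+ libraries and 2 reads over the tbx5a- libraries. The ratio scaled for depth was 43.2 with an exact 95% counting interval of 11.6 to 362. The log2 fold change of 3.86 (SE 1.32) did not pass the test, and it depended on the pseudocount, at 2.12 with 5 and 4.63 with 0.5. The study's own gene list names this row si:dkey-24c2.7 rather than *xirp1*, so its values may not be those of *xirp1*. Whether this row is a separate gene or shares reads with the abundant *xirp1* row could not be settled from the table, so its values are uncertain. Among tbx5a+ cells it was lowest in pairs 8 and 9, where the abundant row was highest.

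*flna* encodes filamin A, the filamin of most non-muscle cells in mammals. It had 13.4, 0.98, 19.1 and 25.4 units in tbx5a+ cells of pairs 2, 8, 9 and 10, against 277, 144, 289 and 193 units in tbx5a- cells. The populations were well apart, and the tbx5a+ value of pair 8 rested on 1 read. Over all libraries there were 61 reads in tbx5a+ cells and 863 in tbx5a- cells, a depth-scaled ratio of 0.0672 (exact 95% counting interval 0.0509 to 0.0872). The means were 14.7 ± 10.4 units in tbx5a+ cells and 226 ± 69.4 units in tbx5a- cells (SD, n = 4 each), and the log2 fold change was -4.30 (SE 0.76), with a 95% interval of -5.87 to -2.73. The within-pair differences of -4.28, -6.20, -3.85 and -2.88 had an SD of 1.39, the widest of the members past the threshold. Without the tbx5a- libraries of pairs 2 and 9 the log2 fold change was -3.92 and the p threshold was not passed (limma adjusted p = 0.576). Nor was it passed without the tbx5a- library of pair 2 alone (-4.18, limma adjusted p = 0.068) or of pair 10 alone (-4.36, limma adjusted p = 0.0583).

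*flnca* encodes 1 of the filamin C proteins of zebrafish. It had 56045, 52830, 54083 and 55418 units in tbx5a+ cells of pairs 2, 8, 9 and 10, against 31424, 42694, 39445 and 49979 units in tbx5a- cells. The tbx5a+ libraries lay close together, with a coefficient of variation of 2.62%, against 18.8% among tbx5a- libraries. Every tbx5a+ library was above every tbx5a- library, yet the step was small. The means were 54594 ± 1433 units in tbx5a+ cells and 40885 ± 7693 units in tbx5a- cells (SD, n = 4 each). The log2 fold change of 0.44 (SE 0.20, 95% interval 0.02 to 0.85) passed neither the fold nor the p threshold. Its limma adjusted p was 0.7, and 0.309 with the pair as a block. Over all 13895 tested genes the median difference was 0.20 on the log2 scale. *flnca* was lowest in the tbx5a- libraries of pairs 2 and 9, which had the fewest genes above 0. Without them its log2 fold change was 0.24, and the median of all tested genes in that fit was 0.04.

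*flncb*, the duplicate of *flnca*, had 4156, 3436, 4152 and 4096 units in tbx5a+ cells of pairs 2, 8, 9 and 10, against 2438, 3104, 3679 and 4951 units in tbx5a- cells. The populations overlapped, and the highest and lowest of the 8 values were both from tbx5a- cells. The log2 fold change was 0.20 (SE 0.21), with a 95% interval of -0.23 to 0.63. Without the tbx5a- libraries of pairs 2 and 9 it was 0.01. Relative to *flnca* within a library, *flncb* was lower in tbx5a+ cells in all 4 pairs, by -0.07, -0.16, -0.28 and -0.42 on the log2 scale, with a mean of -0.23 ± 0.15 (SD). The filamin C genes are near relatives, and how the quantification split reads between them was not tested.

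*flnb* encodes filamin B. Its row ENSDARG00000098374 had 15.4, 0, 0.96 and 20.7 units in tbx5a+ cells of pairs 2, 8, 9 and 10, against 3.29, 0, 0 and 8.59 units in tbx5a- cells. The populations overlapped, 38 reads in tbx5a+ cells stood against 13 in tbx5a- cells, and the 95% interval of the log2 fold change of 1.02 (SE 1.43) ran from -1.94 to 3.98. The row ENSDARG00000092281 was above 0 in 1 library of each population, with 8.60 units in tbx5a+ cells of pair 9 and 12.1 units in tbx5a- cells of pair 2, and was not tested.

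Among the filamins, *flna* was the one past the threshold, and the filamin C rows differed by 0.44 and 0.20 on the log2 scale, beside the median of 0.20 over all genes. The log2 ratio of *flna* over *flnca* was -12.0, -15.7, -11.5 and -11.1 in tbx5a+ cells of pairs 2, 8, 9 and 10, against -6.82, -8.21, -7.09 and -8.02 in tbx5a- cells. The mean within-pair difference was -5.04 ± 1.86 (SD, n = 4 pairs). The largest difference, in pair 8, rests on 1 *flna* read, and without that pair the mean was -4.22 ± 1.08 (SD, n = 3 pairs). 4 tested rows did not overlap between the populations (*xirp2a*, *flna*, *flnca* and the further *xirp1* row), where 3.97% of all tested genes did not overlap. All 4 pairs were higher in tbx5a+ cells for *flnca* and the further *xirp1* row, as for 9.54% of tested genes. All 4 were higher in tbx5a- cells for *xirp2a* and *flna*, as for 5.38% of tested genes. *xirp2a* and *flna* were chosen on this contrast, so nothing is read from their part in these counts.

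**Figure D2:**
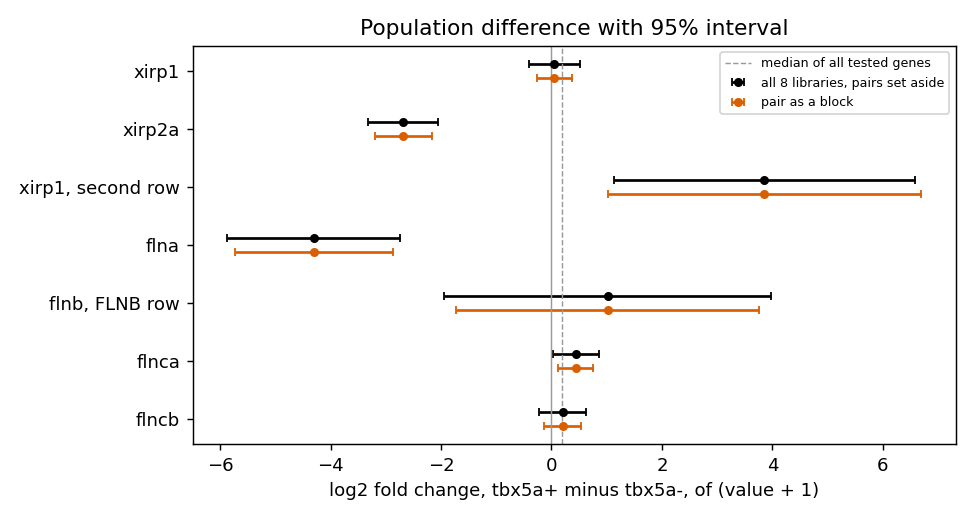
Log2 fold change, tbx5a+ over tbx5a-, of each tested row with its 95% interval from limma (log2(value + 1) scale, 4 libraries a population), without the pair in the fit in black and with the pair as a block in orange; the solid line is 0 and the dashed line the median of all tested genes. In the fit without the block the intervals of *xirp2a* (-3.32 to -2.05) and *flna* (-5.87 to -2.73) lie below 0. Both genes were chosen on this contrast, so nothing is read from that. The interval of *xirp1* (-0.41 to 0.52) spans 0. That of *flnca* (0.02 to 0.85) lies just above 0 and contains the dashed line at 0.20.

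**Figure D3:**
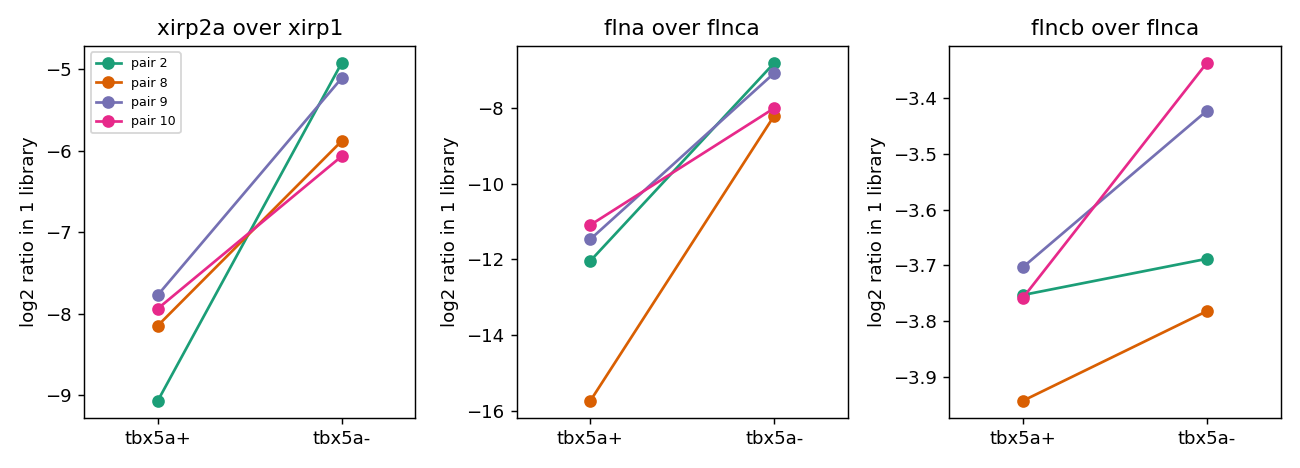
Log2 ratio of a pair of genes within a library, tbx5a+ left of tbx5a-, with 1 coloured line for each pair of libraries and a separate vertical scale in each panel. *xirp2a* over *xirp1* and *flna* over *flnca* are lower in tbx5a+ cells in every pair, by means of -2.74 and -5.04, while the mean difference for *flncb* over *flnca* is -0.23.

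Differences between pairs were also examined. *xirp1*, *xirp2a* and *flna* were chosen on the population contrast read by pair. The spread used below is therefore not independent of that choice, and for these genes the values are a description. The labels call the libraries pairs without saying what a pair shares. An F test of the pair terms, with the population in the fit, called 109 of 13895 genes, 0.784% of them, at an adjusted p up to 0.05, and 1246 at an unadjusted p under 0.05. It called none of the 7 tested rows: limma's adjusted p was 0.58 for *xirp1*, 0.58 for *xirp2a*, 0.67 for *flna*, 0.83 for *flnca* and 0.69 for *flncb*. With robust moderation of the variances, *xirp1* did pass (adjusted p = 0.00237, limma). That is the form of the pattern noted above, in which both populations of pair 8 had the highest *xirp1* and both of pair 9 the next. These p-values weigh the differences between pairs against the spread left after population and pair are fitted.

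Filamin A is expressed in smooth muscle of mammals. Of 20 rows for smooth muscle and mural cells, 12 were tested and 2 were called, *acta2* and *tagln*, both lower in tbx5a+ cells. *acta2*, smooth muscle actin, had 3.29, 0, 0 and 5.84 units in tbx5a+ cells of pairs 2, 8, 9 and 10, against 284, 111, 518 and 189 units in tbx5a- cells. *tagln*, the actin-binding protein transgelin, had 176, 198, 144 and 437 units in tbx5a+ cells against 1685, 376, 2063 and 654 units in tbx5a- cells. Both fell in tbx5a+ cells in the limma fit, *acta2* with a log2 fold change of -6.67 (adjusted p = 0.00088) and *tagln* with one of -2.15 (SE 0.42, adjusted p = 0.016). When 1 library was left out, *acta2* kept an adjusted p of 0.000493 to 0.0183, whereas *tagln* lost its call in 6 of 8 such limma fits (without tbx5a+ of pair 2, 8 or 9, or tbx5a- of pair 2, 9 or 10), with an adjusted p of 0.00356 to 0.184. Without the tbx5a- libraries of pairs 2 and 9 neither was called. The log2 fold change was then -5.97 for *acta2* (adjusted p = 0.311) and -1.19 for *tagln* (adjusted p = 0.853). Within tbx5a- cells *flna*, *acta2*, *tagln* and the cardiomyocyte gene *vmhc* all had the order pair 9, 2, 10 and 8 from high to low. *xirp2a* had the order 9, 2, 8 and 10, as did MYL7 (100594, 100224, 88000 and 78434 units). The number of genes above 0 rose in that same order of libraries (11329, 12225, 13301 and 13793). The share of all tested genes with either order was not counted, so nothing is read from these orders.

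The other 10 tested rows of that list were not called and differed in direction. The list summed to 16500 to 18900 units in tbx5a+ libraries and 16800 to 19500 in tbx5a- libraries, most of it from 1 row with the symbol DES, desmin, which cardiomyocytes also use. The rows for MYH11, smooth muscle myosin heavy chain, had 0 to 11.3 units in tbx5a+ libraries and 0 to 48.1 in tbx5a- libraries, and RGS5, ITGA8 and a further DES row were at 0 throughout. *abcc9*, a potassium channel subunit of mural cells and of heart muscle, had 1138, 853, 1005 and 984 units in tbx5a+ cells of pairs 2, 8, 9 and 10, against 429, 686, 564 and 669 units in tbx5a- cells (log2 fold change 0.78, limma adjusted p = 0.413). *rgs5b*, a regulator of G protein signalling, had 61.8 to 108 units in tbx5a+ libraries and 42.9 to 237 units in tbx5a- libraries. The ranges were 642 to 755 units in tbx5a+ libraries and 361 to 765 in tbx5a- libraries for *smtnb*, a smoothelin, and 242 to 401 in tbx5a+ libraries and 221 to 296 in tbx5a- libraries for CSPG4, a proteoglycan. *cnn1b*, calponin, averaged 23.8 ± 19.2 units in tbx5a+ cells and 82.5 ± 59.8 in tbx5a- cells and was not past the threshold. *notch3* had 0, 0, 15.3 and 0 units in tbx5a+ cells of pairs 2, 8, 9 and 10, against 59.2, 0, 60.5 and 16.3 units in tbx5a- cells. Its log2 fold change was -2.985 (limma adjusted p = 0.716). The row TAGLN had 28.75 to 38.24 units in tbx5a+ libraries and 8.3 to 39.51 in tbx5a- libraries. For *smtna* the ranges were 0 to 18.16 and 0 to 20.16 units. Fibroblast markers summed to 332 to 524 units in tbx5a+ libraries and 476 to 997 in tbx5a- libraries, with none called. LUM, POSTN and TCF21 were at 0 throughout, and PDGFRA was at 0 in tbx5a+ libraries. At an unadjusted p under 0.05 (limma) 1 marker was higher in tbx5a- cells. The sums were 216 to 347 and 108 to 781 units for endothelium and endocardium, in tbx5a+ and tbx5a- libraries in turn. They were 29.3 to 63.9 and 50.4 to 132 for thrombocytes, and 152 to 204 and 113 to 374 for leukocytes, with none called. Epicardium markers summed to 3380 to 4360 units in tbx5a+ libraries and 3220 to 4640 in tbx5a- libraries, with none of 6 tested rows called. The part of other cell types in the *flna* and *xirp2a* values was not tested.

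**Figure D4:**
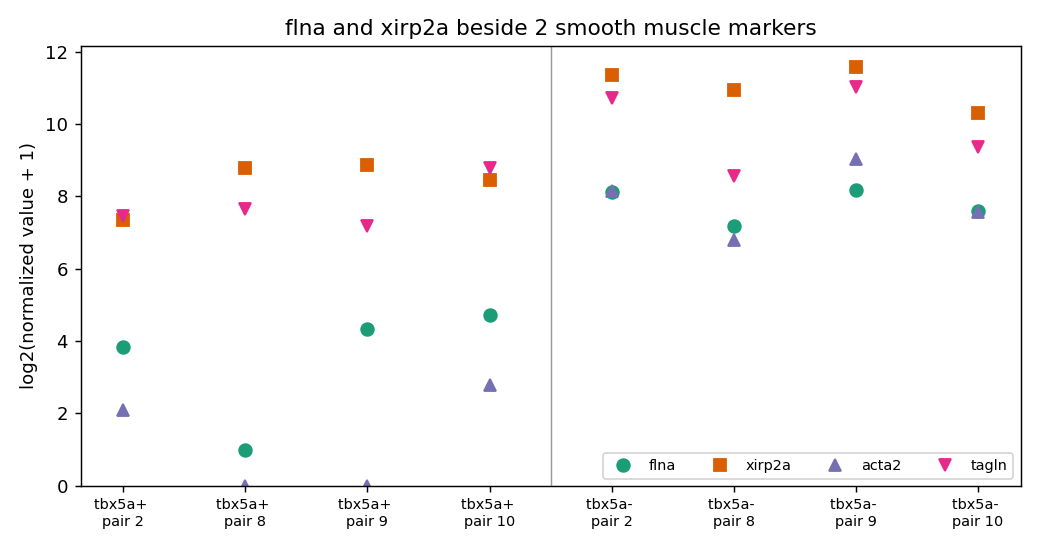
Log2(normalised value + 1) of *flna*, *xirp2a*, *acta2* and *tagln* in each library, tbx5a+ libraries left of the vertical line and tbx5a- libraries right of it. Each of the 4 genes is lower in the tbx5a+ library of every pair than in its tbx5a- library. *flna* and *xirp2a* were chosen on this contrast. *acta2* and *tagln* are shown because they were called in it, out of 12 tested smooth muscle and mural rows, the others of which differed in direction. Nothing is read from the shared direction.

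Partners and neighbours of the members were examined in 6 lists. None of the 30 tested genes for Z-discs and filamin C partners passed the threshold, the median log2 fold change being 0.11 beside 0.20 for all genes. Those with the smallest unadjusted p were *pdlim5a*, *tcap* and FHL2. *pdlim5a*, a PDZ and LIM domain protein of the Z-disc, averaged 732 ± 210 units in tbx5a+ cells and 1289 ± 289 in tbx5a- cells (SD, n = 4 each). *tcap*, which caps titin at the Z-disc, averaged 8622 ± 1233 units in tbx5a+ cells and 5445 ± 2137 in tbx5a- cells. FHL2, a LIM-only protein, averaged 44.0 ± 14.8 units in tbx5a+ cells and 42.3 ± 68.2 in tbx5a- cells. The tbx5a- mean of FHL2 rested mostly on pair 8, with 1.1, 143, 0 and 24.9 units in pairs 2, 8, 9 and 10. Its log2 fold change was 2.18 (limma adjusted p = 0.748).

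Intercalated disc anchors, the site shared with Xin proteins, gave no called gene among 25 tested, with a median of 0.02. *dspa*, desmoplakin of the desmosome, averaged 468 ± 88.8 units in tbx5a+ cells and 833 ± 316 units in tbx5a- cells. *ctnna1*, alpha-catenin of the adherens junction, averaged 1195 ± 228 units in tbx5a+ cells and 788 ± 319 in tbx5a- cells. *lmod2a*, a leiomodin that nucleates actin at thin filament ends, averaged 352 ± 48.9 units in tbx5a+ cells and 239 ± 139 in tbx5a- cells. Their adjusted p in the limma fit was 0.572 to 0.716.

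Filamin regulators and partners gave no called gene among 29 tested (median 0.09). *itgb1b.1*, an integrin beta subunit, a class of receptor whose tail filamins bind, averaged 174 ± 53.2 units in tbx5a+ cells and 299 ± 40.0 in tbx5a- cells. *cdc42*, a small GTPase, averaged 492 ± 66.2 units in tbx5a+ cells and 334 ± 36.1 in tbx5a- cells. FILIP1, a filamin-interacting protein, averaged 1519.7 ± 257 units in tbx5a+ cells and 1135 ± 97.4 in tbx5a- cells. The genes of BAG3-assisted turnover of damaged filamin likewise gave none among 22 tested, with a median of 0.08. *cryabb*, a small heat shock protein, averaged 53.5 ± 26.3 units in tbx5a+ cells and 7.87 ± 4.91 in tbx5a- cells. *tsc1a*, a regulator of growth signalling, averaged 539 ± 87.4 units in tbx5a+ cells and 367 ± 140 in tbx5a- cells, and *stx18*, a membrane fusion protein, averaged 19.9 ± 14.2 units in tbx5a+ cells and 53.7 ± 16.6 in tbx5a- cells.

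Among other actin crosslinkers and actin-binding proteins 27 genes were tested, with a median of -0.16, and only *tagln* was called. *ezra*, ezrin, which links actin to the membrane, averaged 17.1 ± 8.76 units in tbx5a+ cells and was listed at 0 in all 4 tbx5a- libraries. Of the genes for MEF2, SRF and their cofactors, none of 19 tested was called, with a median of -0.12. *srfb*, a serum response factor, averaged 71.6 ± 47.3 units in tbx5a+ cells and 20.6 ± 17.6 in tbx5a- cells, and *hdac9b*, a repressor of MEF2, averaged 54.3 ± 52.5 units in tbx5a+ cells and 102 ± 27.4 in tbx5a- cells. *gata4*, a cardiac transcription factor, averaged 163 ± 18 units in tbx5a+ cells and 92.6 ± 36.5 in tbx5a- cells. At an unadjusted p under 0.05, the actin crosslinker list had 1 gene higher in tbx5a+ cells and 5 higher in tbx5a- cells, where 4.62% of all tested genes were higher in tbx5a+ cells and 2.44% higher in tbx5a- cells. The other partner lists had at most 2 in a direction, and the smooth muscle and mural list, which shares *tagln* and *cnn1b* with the crosslinkers, had 1 higher in tbx5a+ cells and 3 higher in tbx5a- cells.

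**Figure D5:**
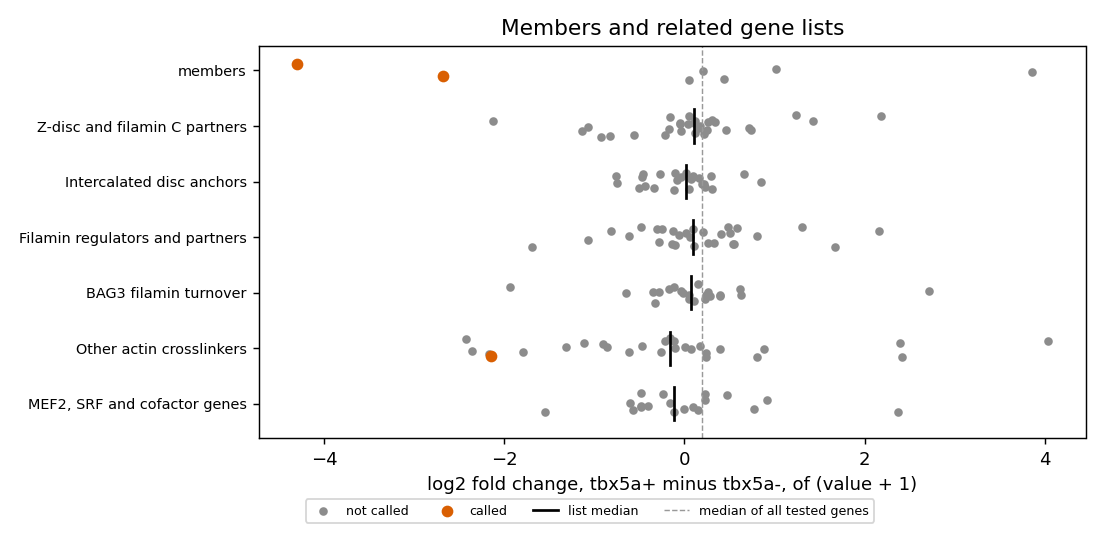
Log2 fold change, tbx5a+ over tbx5a-, of each tested row of the Xin repeat and filamin genes (top) and of the 6 partner lists, with called genes in orange, a list's median as a black bar and the median of all tested genes (0.20) as a dashed line; vertical scatter within a list carries no value. The list medians lie between -0.16 and 0.11, and of the listed genes 1, *tagln*, is called.

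The genes whose pattern over the 8 libraries was most like that of a member were named by Pearson's r on log2(value + 1), as a description, since all values come from the same 8 libraries. For *xirp2a* and *flna* this r includes the population difference that chose them. Any gene with a large difference in the same direction scores high, so joint regulation is not read from it. For *xirp2a* these were *cxcl18b*, a chemokine, *anxa2a*, a membrane-binding annexin, *cd63*, a tetraspanin, *rpz5*, and *tmsb4x*, which binds actin monomers, with r of 0.97 to 0.99. *anxa2a* had 12.3, 79.5, 43.0 and 50.8 units in tbx5a+ cells of pairs 2, 8, 9 and 10, against 1914, 1365, 1922 and 800 units in tbx5a- cells. For *flna* they were *s100u*, *rreb1a*, *slc6a9*, *hspa12b* and zgc:173742, with r of 0.95 to 0.98. Each had its lowest tbx5a+ value in pair 8, where *flna* rested on 1 read. For *xirp1*, whose populations overlapped, they were *akap9* (0.96), a scaffold for protein kinase A, GLS2 (0.96), a glutaminase, si:ch73-171a6.2 (0.96), CREBRF (0.95) and DDX55 (0.93). *akap9* averaged 371 units in tbx5a+ cells and 379 units in tbx5a- cells.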

How the data were processed

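The authors trimmed the reads with cutadapt, quantified them on the Ensembl zebrafish transcriptome with RSEM and normalised them with EdgeR, without pooling replicates. Per the labels the build was Zv9 and the tools CASAVA 1.8.2 and RSEM 1.2.3, whereas the methods name another RSEM version and a later Ensembl gene build. The deposited table holds a normalised signal per gene and library, not counts. Of values under 60 units, 71.1% to 77.7% were whole multiples (within 0.0051) of 1 spacing per library, and estimated reads are values divided by that spacing. RSEM divides reads that fit several genes, so paralogues can share them.

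Genes that reached 1 CPM in 2 or more libraries (13895 of 31388) were fitted with limma 3.58.1 (R 4.3.3) with a trend on log2(value + 1), tbx5a+ against tbx5a-. Calls needed an adjusted p (Benjamini-Hochberg) up to 0.05 and a difference of 1 or more on the log2 scale. Fold changes on this scale understate the change of low genes. The pairing comes from the pair number in the labels. Deviations of libraries of 1 pair correlated weakly (r = 0.04 to 0.09), each best with its own number. Alternatives were the pair as a block, other pseudocounts, no filter, upper quartile scaling, limma-voom, robust moderation, and leaving out libraries. Plots were drawn with matplotlib 3.10.9 and summaries made with pandas 2.3.3 and numpy 2.4.6 in Python 3.11.15. The fits were tested on simulated data.

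The members and lists were chosen with earlier results of these data known. All members are named. Of each list, called genes are named and, where fewer than 3 were called, those of smallest p up to 3, and of likeness the 5 highest r, or 3 after taking out population means. Symbols for zebrafish duplicates often carry human-style names, and the rows of *flncb* and *xirp2b* were taken by elimination. Transcript lengths and sequences were not used here, so levels of different genes are not compared.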

Additional observations from a re-analysis of the deposited data

Results flagged for a closer look

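Of 16 groups of 4 values for the rows of *xirp1*, *xirp2a*, *flna*, *flnb*, *flnca* and *flncb*, 4 held a library far from the other 3. Chance flags about 1 in 20 groups of values without ties. A group with a single library above 0 is flagged whatever that value, so the count is not set against this share. In 3 of them a single library was above 0: the *flnb* row ENSDARG00000092281 had 8.60 units in tbx5a+ cells of pair 9 and 12.1 units in tbx5a- cells of pair 2, and the further *xirp1* row (ENSDARG00000092427) had 1.72 units in tbx5a- cells of pair 10. In the 4th, *flncb* had 3436 units in tbx5a+ cells of pair 8, below 4096 to 4156 units in the other tbx5a+ libraries.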

How the results depend on the processing

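The direction of *xirp2a* and *flna* held under every alternative run. Calls higher in tbx5a+ cells numbered 1, against 19 with the pair as a block, 3 with a pseudocount of 5, 2 with limma-voom and 3 with robust moderation, and 1 to 8 when 1 library was left out. Calls higher in tbx5a- cells numbered 26, against 18 to 25 with 1 library left out and 5 without the tbx5a- libraries of pairs 2 and 9. The block changed no call of a member (2 rows). The 2 called rows became 1 with limma-voom, where *flna* had a log2 fold change of -4.54 past the fold but not the p threshold, 0 without the tbx5a- libraries of pairs 2 and 9 (*xirp2a* -2.26, *flna* -3.92), and 1 to 2 with 1 library left out. *flna* lost its call without tbx5a- of pair 2 or of pair 10. Leaving out 1 library gave -2.93 to -2.35 for *xirp2a*, -4.72 to -3.47 for *flna*, 0.32 to 0.54 for *flnca*, 0.04 to 0.38 for *flncb*, 0.33 to 1.81 for *flnb*, 3.47 to 4.28 for the further *xirp1* row and -0.062 to 0.15 for *xirp1*. The mean of *xirp1* was -0.068 with limma-voom and -0.009 without the tbx5a- libraries of pairs 2 and 9, and with 1 library left out it was -0.062 without tbx5a+ of pair 8, -0.039 without tbx5a- of pair 2 and -0.006 without tbx5a- of pair 10. The single called gene of the partner lists was lost with no filter, with robust moderation and without the tbx5a- libraries of pairs 2 and 9 (0 each), and leaving out 1 library gave 0 to 1. Genes that differed between pairs numbered 109, against 201 with a pseudocount of 5 and 226 with robust moderation, which called 1 member row. The median over all tested genes, 0.20, was 0.09 with limma-voom and 0.04 without the tbx5a- libraries of pairs 2 and 9. The cause was not tested in any of these cases. The further *xirp1* row had 2.12 with a pseudocount of 5 and 4.63 with 0.5. Values of *flnb*, *xirp2b* and the further *xirp1* row are limited by depth, the tested *flnb* row having 38 reads in tbx5a+ and 13 in tbx5a- libraries.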

Other observations

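After the population means were taken out, the filamin C rows varied together over the 8 libraries (Pearson's r = 0.89 for *flnca* and *flncb*), while *xirp2a* and *flna* did not (r = -0.08). The residual r was 0.43 for *xirp1* with *xirp2a* and -0.68 for *xirp1* with *flna*. These points share libraries and, for the filamin C rows, may share reads. The *flna* points include tbx5a+ of pair 8, which rested on 1 read.

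With the population means taken out, the genes most like *xirp1* were *akap9* (r = 0.97), CREBRF (0.97) and *hsp70.1* (0.97), a heat shock protein. *hsp70.1* had 2035, 5331, 3189 and 2608 units in tbx5a+ cells of pairs 2, 8, 9 and 10, against 2937, 6118, 6015 and 3173 units in tbx5a- cells, so pairs 8 and 9 were highest in both populations, as for *xirp1*. Those most like *xirp2a* were JPH1, PTPN11 and *casp8ap2* (r = 0.96 to 0.97). Those most like *flna* were *ssh2b*, a cofilin phosphatase, *tnrc6ba* and IMPACT (r = 0.973 to 0.997). Each had its lowest tbx5a+ value in pair 8, where *flna* rested on 1 read and *ssh2b* and IMPACT were at 0. These r values therefore lean on a library near the floor.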
